A study of Rattus norvegicus with 18 samples.

Results

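The 88 genes described here encode chromatin modifiers and remodelers, the enzymes and complex subunits that add, remove or read chemical marks on histones and DNA or that move nucleosomes. They were chosen by gene symbol alone: the Hdac, Sirt1 to Sirt7, Kat, Kmt, Kdm, Prmt, Smarc, Chd, Brd and Dnmt families, with Ep300, Crebbp, Ezh1, Ezh2, Eed, Suz12 and Carm1. Of these, 86 were tested, among 11982 genes tested in all. Dnmt3b, a de novo DNA methyltransferase, and Kdm4d, a lysine demethylase, each had 1 probe set, which lay below the filter described next. The rule uses no measured value, although it was written with earlier results of these data known.

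Expression was measured in O4+ and A2B5+ cells sorted by flow cytometry from dissociated whole brains of male rat pups on postnatal day 7. The O4 antibody binds sulfatide and other lipids on late progenitors and oligodendrocytes, and the A2B5 antibody binds gangliosides of glial progenitors and some neurons. There were 4 O4+ replicates and 5 A2B5+ replicates, each prepared from a litter of 10 pups, and no treatment or genotype distinguished them. Both groups were measured on 2 Affymetrix array types, called type A and type B here, with the same replicate numbers on each. Whether an equal number means the same RNA on both types is not stated. Of the 86 tested genes, 71 were read from type A and 15 from type B. A probe set is a group of array probes for a transcript, and it was kept where its ratio was at least 1 on 4 or more of 9 arrays.

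Histone acetylation is laid down by acetyltransferases and removed by deacetylases and sirtuins, and it generally accompanies active transcription. Lysine methylation can mark active or silent chromatin according to its position, and polycomb repressive complex 2 is the best-known writer of a silencing mark. In the oligodendrocyte lineage, deacetylases such as Hdac1 and Hdac2, the remodeler Smarca4 and several Chd proteins are known in mice for roles in the passage from progenitor to myelinating cell, and Sirt2 protein is known as a component of myelin.

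The deposited values are linear ratios, each relative to its own probe set, so levels of different genes cannot be compared and every statement below concerns differences between arrays. When all 4 O4+ arrays lay on one side of all 5 A2B5+ arrays, the middle of the 9 values was an A2B5+ array, which is why that array often reads exactly 1. Differences are given as log2, O4+ minus A2B5+, with the standard error (SE) of the limma fit, n = 4 and 5. A gene was called at a Benjamini-Hochberg adjusted p under 0.05 over all 11982 genes. In sorted populations, fewer cells of a type and less RNA per cell cannot be told apart. The number of arrays limits the precision.

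The labels were checked against markers. All 14 tested genes of myelinating oligodendrocytes were called higher in O4+ cells, with a median difference of 5.27. Of 9 progenitor genes 5 were higher and 4 lower, with a median of 1.5 and differences between -2.29 and 4.68. The lowest was Pdgfra (-2.29 ± 0.61), the growth factor receptor that marks early progenitors, so this list gave no single direction. Genes of dividing cells were lower (19 of 20, median -1.82), as were 11 of 12 microglia genes, 8 of 11 endothelial and mural genes, 6 of 9 genes of astrocytes and radial glia, 4 of 6 ependymal genes and 8 of 14 neuron genes, where 4 were higher. On type A the mean log2 ratio of 14 genes of dividing cells was between -1.60 and -0.81 in O4+ arrays and between 0.20 and 0.61 in A2B5+ arrays, so these did not overlap. The corresponding ranges were -1.31 to 0.10 and -0.03 to 0.73 for microglia and -0.60 to -0.24 and -0.21 to 1.27 for 13 neuron genes. Ratios hold no zero level, so it cannot be said of any marker that it was at 0. The part of these other cells in the differences below was not tested.

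As a group, chromatin genes were called in no larger a share than all genes, 32 of the 86 in either direction where 46.5% of all 11982 were. In O4+ cells 19 of the 86 were called higher, where 28.8% of all tested genes were, and 13 were called lower, where 17.8% of all genes were. The median difference was 0.09 for the 86 and 0.14 for all genes. At an unadjusted p under 0.05 stood 40 of the 86, 24 higher and 16 lower. Of all 11982 genes 4077 were higher and 2449 lower at that threshold, the background for the unadjusted counts by role below. The O4+ values lay wholly above the A2B5+ values for 16 members and wholly below them for 10, against 27.6% and 13.5% of all genes. By probe set, limma called 18 higher and 9 lower of 79 on type A, where 32.5% and 14.7% of all probe sets were, and 2 higher and 9 lower of 59 on type B, where 9.93% and 13.8% were. A call with a difference of at least 1 in size was made for 7 higher and 2 lower members, where 10.0% and 10.8% of all genes reached it. The widest differences belonged to a few genes, led by the deacetylase Hdac11 and the sirtuin Sirt2.

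**Figure D1:**
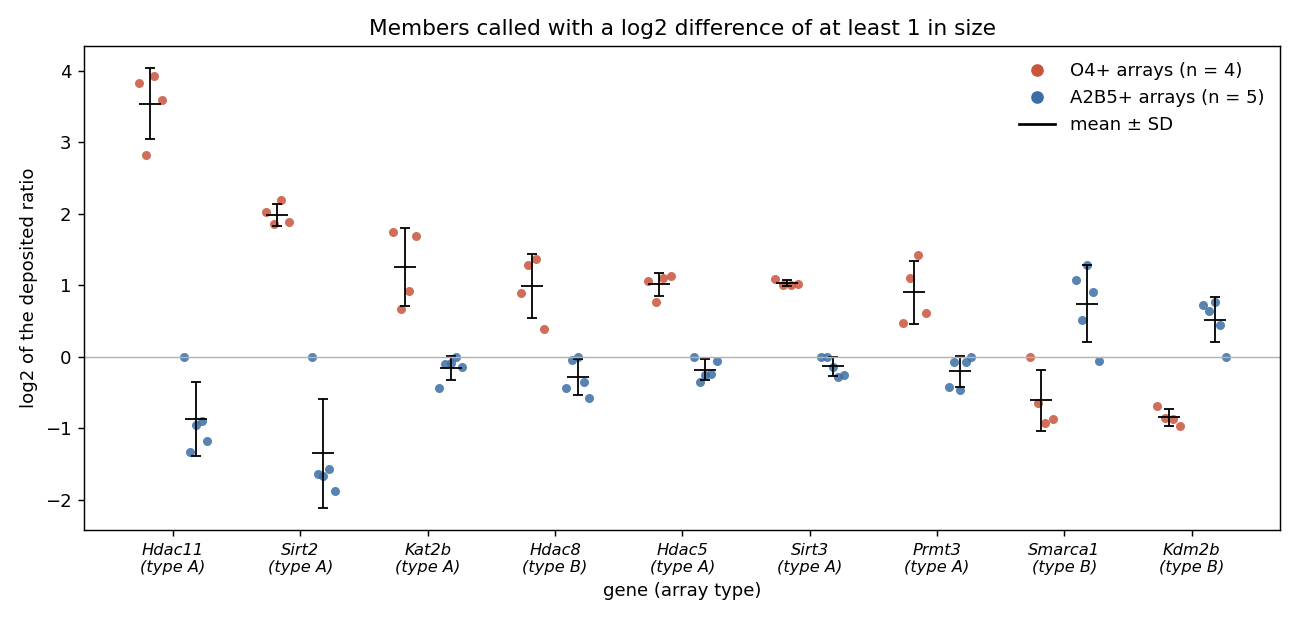
Log2 of the deposited ratio (vertical axis) of the 9 members called with a difference of at least 1 in size, with O4+ arrays left of A2B5+ arrays for each gene; points are arrays and bars are means with SD. Hdac11 and Sirt2 are set apart by O4+ ratios of at least 7.09 and 3.62, and Smarca1 is the member of the 9 whose groups overlap.

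The scale of type A arrays bears on small differences. The tested probe sets of type A had a median 0.17 higher in O4+ than in A2B5+ arrays, and for probe sets with a median ratio under 1, taken as those with little signal, the shift was 0.33. On type B these shifts were 0.00 and 0.07. With arrays centred on tested probe sets, 12 members were higher and 16 lower, against 18.7% and 20.4% of all genes. With arrays shifted by the low probe sets, an alternative added after seeing the data, 7 were higher and 20 lower, against 13.0% and 25.4%. All 13 members called lower on the deposited scale were also called lower under both, whereas 12 and 7 of the 19 called higher were. Both alternatives move every type A difference downward, so they favour lower calls and work against higher ones. That the lower calls were kept is therefore no sign that they are firmer. The 7 were Hdac11, Sirt2, Kat2b, Hdac8, Hdac5, Sirt3 and Prmt3.

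**Figure D2:**
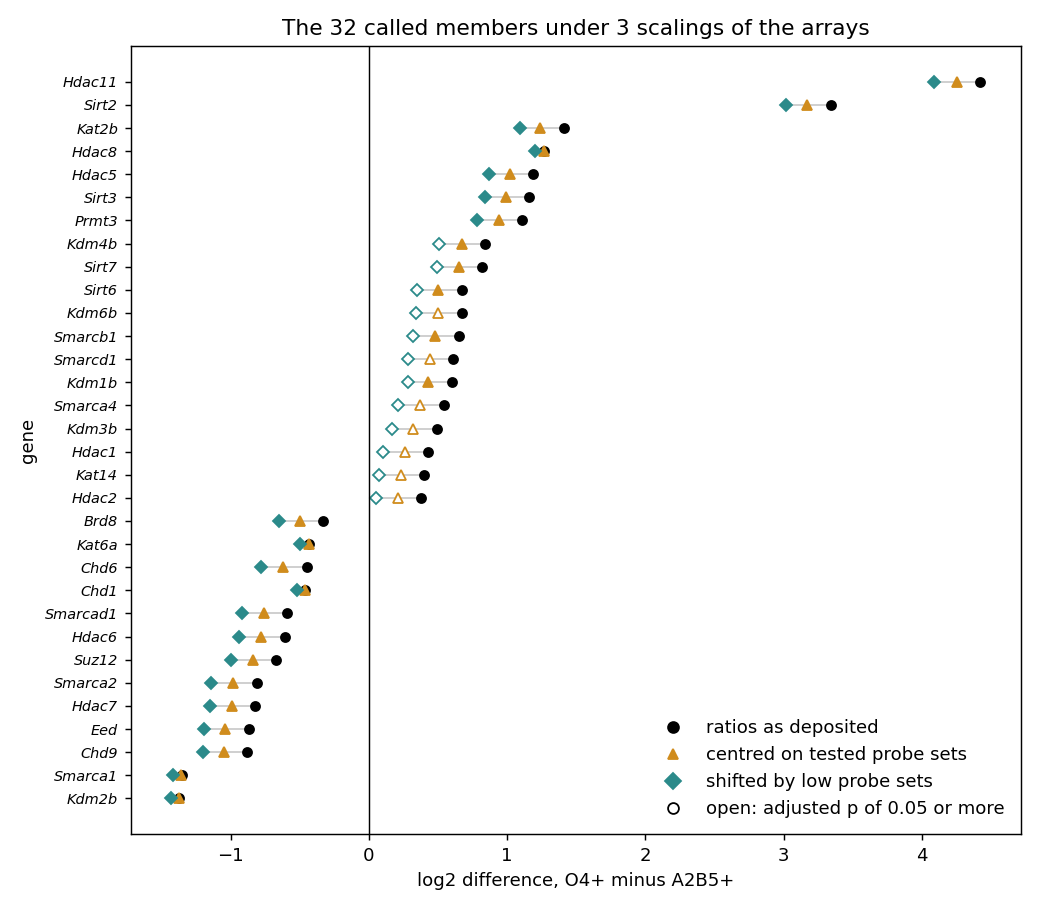
Log2 differences (horizontal axis, O4+ minus A2B5+) of the 32 called members (vertical axis) on the deposited scale, with arrays centred on tested probe sets and with arrays shifted by low probe sets; open symbols have an adjusted p of 0.05 or more. The 13 lower members keep filled symbols throughout, and the smaller of the higher members lose theirs, where both alternatives move type A differences downward.

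The classical histone deacetylases held the widest difference of all members. Of 10 tested, 5 were higher (Hdac11, Hdac8, Hdac5, Hdac1, Hdac2) and 2 were lower (Hdac7, Hdac6), where 28.8% and 17.8% of all genes were. The median was 0.31. Hdac11, the lone class IV deacetylase, is also known to remove long-chain acyl groups. Its ratios were 14.2, 7.09, 15.2 and 12.1 in O4+ arrays, against 1.00, 0.396, 0.514, 0.537 and 0.441 in A2B5+ arrays. Every O4+ array stood far above every A2B5+ array, and A2B5+ replicate 1 read highest of its group. The mean log2 ratio was 3.54 ± 0.50 in O4+ cells and -0.87 ± 0.52 in A2B5+ cells (SD, n = 4 and 5), a difference of 4.42 ± 0.30 or 21.4-fold (limma adjusted p = 4.7e-06). Raising all ratios under 0.5 to 0.5, which limits the weight of the lowest A2B5+ values, gave 4.32.

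Hdac8, a class I deacetylase of the nucleus that also acts on cohesin, was read from type B. Its ratios were 1.86, 2.43, 2.59 and 1.31 in O4+ arrays, against 0.735, 0.966, 1.00, 0.786 and 0.672 in A2B5+ arrays. The groups did not overlap, with O4+ replicate 4 the lowest of its group and O4+ replicate 3 the highest. The difference was 1.27 ± 0.22, 2.41-fold (limma adjusted p = 0.0012). Hdac5, a class IIa deacetylase that shuttles between nucleus and cytoplasm, had ratios of 2.08, 1.71, 2.14 and 2.19 in O4+ arrays, against 1.00, 0.782, 0.839, 0.846 and 0.961 in A2B5+ arrays. The O4+ arrays were close to each other and all above the A2B5+ arrays, and the difference was 1.19 ± 0.13, 2.29-fold (limma adjusted p = 7.5e-05). On type B the 2 probe sets of Hdac5 did not pass the test, with a mean difference of 0.22 ± 0.16 (limma adjusted p = 0.3). With no filter on probe sets the type A difference was 0.72 and still called.

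The class I pair Hdac1 and Hdac2, catalytic subunits of the NuRD, Sin3 and CoREST corepressors, differed little. For Hdac1 the ratios were 1.25, 1.45, 1.18 and 1.12 in O4+ arrays, against 0.857, 0.939, 0.928, 0.910 and 1.00 in A2B5+ arrays. For Hdac2 they were 1.19, 1.13, 1.13 and 1.14 in O4+ arrays, against 0.947, 0.875, 0.949, 1.00 and 0.679 in A2B5+ arrays. Neither gene's groups overlapped, yet the gaps between them were narrow. The differences were 0.43 ± 0.12 (limma adjusted p = 0.014) and 0.38 ± 0.13 (0.04). Centring the arrays ended both calls (limma adjusted p = 0.075 and 0.26), and the Hdac2 call was also lost in 7 of the 9 fits that leave out a replicate. Hdac3, the catalytic subunit of the NCoR and SMRT complexes, had ratios of 1.01, 1.00, 1.19 and 0.914 in O4+ arrays, against 0.810, 0.743, 1.05, 1.03 and 0.741 in A2B5+ arrays. Its groups overlapped and it did not pass the test (0.25 ± 0.15, limma adjusted p = 0.21).

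Hdac6, a cytoplasmic deacetylase of tubulin, and Hdac7, a class IIa enzyme known in blood vessels and lymphocytes, were lower in O4+ cells, with differences of -0.61 ± 0.17 and -0.82 ± 0.16 (limma adjusted p = 0.016 and 0.0022). Hdac6 ratios spanned 0.868 to 0.989 in O4+ arrays and 1.00 to 1.69 in A2B5+ arrays, and Hdac7 ratios 0.607 to 0.827 and 1.00 to 1.51. The Hdac6 groups nearly touched, and a gap separated the Hdac7 groups. Hdac4 and Hdac10 did not pass the test (0.23 ± 0.18 and -0.01 ± 0.16). Beside the Hdac7 result stands the fall of 8 of 11 endothelial and mural genes (type A means -1.91 to -0.73 in O4+ arrays and 0.10 to 0.46 in A2B5+ arrays), whose part was not tested.

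Of the 6 tested sirtuins, the NAD-dependent deacylases, limma called 4 higher and 0 lower, where 28.8% and 17.8% of all genes were. The median was 0.75, with 4 higher and 0 lower at an unadjusted p under 0.05. Sirt2, a mainly cytoplasmic deacetylase of tubulin and other proteins, had ratios of 4.08, 3.62, 4.57 and 3.68 in O4+ arrays, against 1.00, 0.321, 0.315, 0.335 and 0.271 in A2B5+ arrays. The O4+ arrays lay within a narrow band, and A2B5+ replicate 1 stood apart from the other A2B5+ arrays, which were all near 0.3. The mean log2 ratio was 1.99 ± 0.15 in O4+ cells and -1.35 ± 0.77 in A2B5+ cells (SD, n = 4 and 5), a difference of 3.34 ± 0.34 or 10.2-fold (limma adjusted p = 5.9e-05). Without A2B5+ replicate 1 it was 3.68, and with ratios raised to at least 0.5 it was 2.79. The mean log2 ratio of 12 myelin genes on type A was -0.76 in A2B5+ replicate 1, against -0.96 to -0.65 over the A2B5+ arrays. The mean of 8 progenitor genes, a list that moved both ways, was 0.56 in that array. This was the highest of the A2B5+ arrays, and O4+ arrays had 0.27 to 0.86. The part of either cell type in the Sirt2 value of that array was not tested.

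Sirt3, the main deacetylase of mitochondria, had ratios of 2.13, 2.01, 2.00 and 2.02 in O4+ arrays, against 0.998, 1.00, 0.907, 0.821 and 0.839 in A2B5+ arrays. All O4+ arrays were about 2 and all A2B5+ arrays were at or below 1, and the difference was 1.16 ± 0.11, 2.24-fold (limma adjusted p = 3.5e-05). The nuclear Sirt6 and the nucleolar Sirt7 were higher by 0.67 ± 0.17 and 0.82 ± 0.19 (limma adjusted p = 0.0088 and 0.0067), Sirt7 with overlap from A2B5+ replicate 5. Both calls were lost after the shift by low probe sets (limma adjusted p = 0.12 and 0.065). The mitochondrial Sirt4 and Sirt5 did not pass the test (0.08 ± 0.11 and -0.09 ± 0.11). Sirt1 had no probe set with a lone symbol here and was not analysed.

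**Figure D3:**
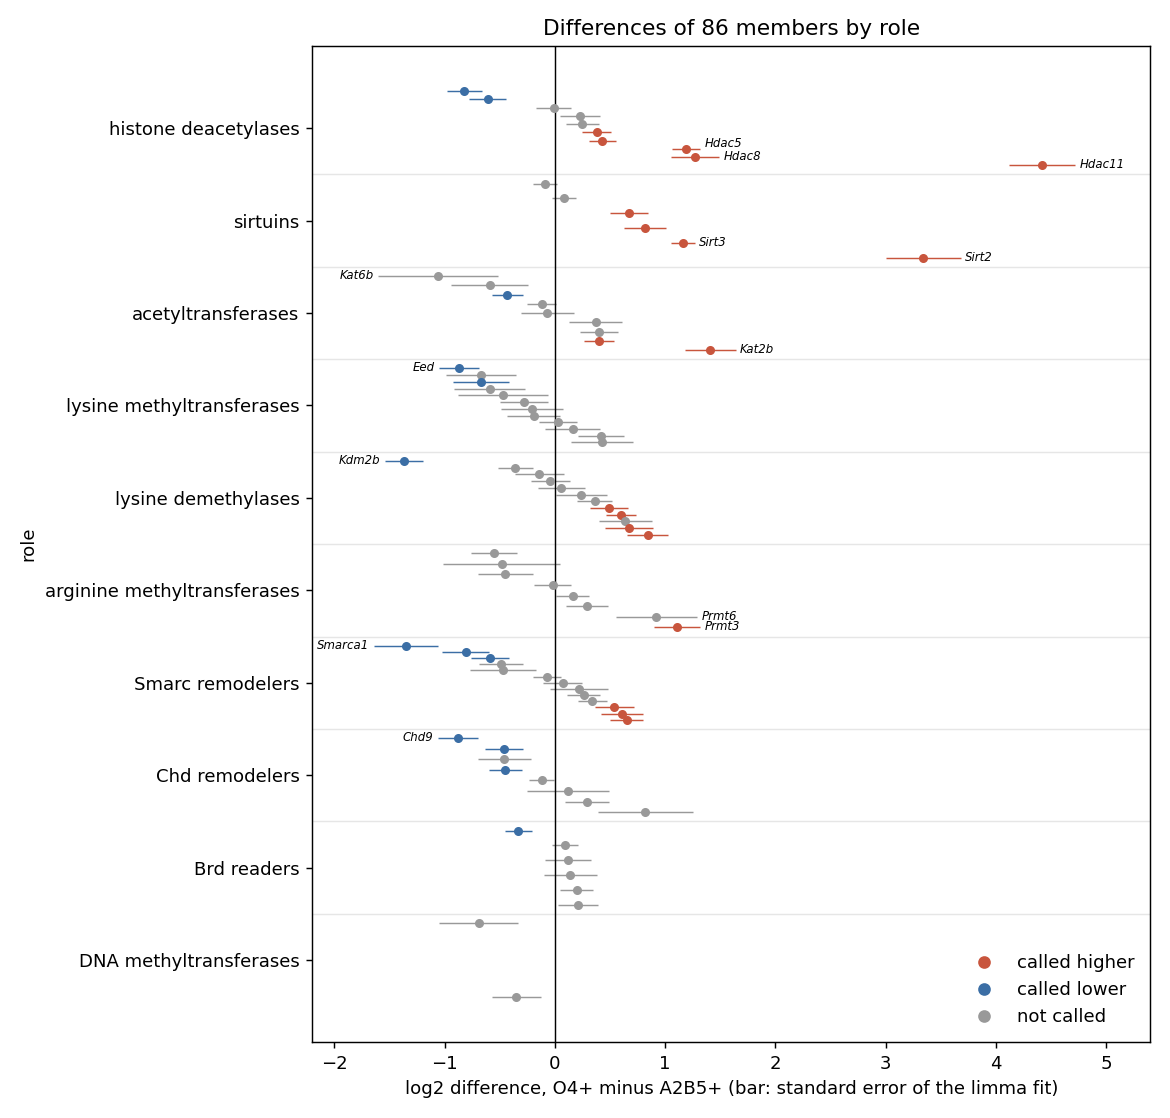
Log2 difference, O4+ minus A2B5+ (horizontal axis), with the SE of the fit, for the 86 tested members grouped by role (vertical axis); colours mark the call. Most members lie within 1 of 0 on either side, and Hdac11 (4.42) and Sirt2 (3.34) stand far to the right.

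Of 9 acetyltransferases 2 were higher and 1 lower (28.8% and 17.8% over all genes), with a median of -0.07. Kat2b, also known as PCAF, is an acetyltransferase of coactivator complexes. Its ratios were 3.35, 1.58, 1.89 and 3.24 in O4+ arrays, against 0.735, 0.930, 0.941, 1.00 and 0.902 in A2B5+ arrays. O4+ replicates 1 and 4 were higher than replicates 2 and 3, and all stood above the A2B5+ arrays. The mean log2 ratio was 1.26 ± 0.55 in O4+ cells and -0.16 ± 0.17 in A2B5+ cells (SD, n = 4 and 5), a difference of 1.41 ± 0.23 or 2.66-fold (limma adjusted p = 0.001). Its close relative Kat2a, also known as GCN5 and read from type B, had ratios of 1.69, 1.00, 0.708 and 0.779 in O4+ arrays, against 1.31, 1.05, 0.949, 1.01 and 0.895 in A2B5+ arrays. Those groups overlapped widely and no difference passed the test (-0.07 ± 0.24, limma adjusted p = 0.83). The difference between the 2 relatives was not itself tested.

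Kat14, a subunit of the ATAC complex, was higher by 0.40 ± 0.14 (limma adjusted p = 0.041), a call that centring ended (0.19). Kat6a, a MYST-family enzyme, was lower, with a difference of -0.43 ± 0.14 (limma adjusted p = 0.034). Each of these calls was lost in 6 of the 9 fits without a replicate. The 2 Kat6a probe sets gave -0.60 and -0.26, and neither was called alone. With only the probe set of the widest range, the Kat6a call was lost (limma adjusted p = 0.16). Kat5, the catalytic subunit of the NuA4-type complex, had ratios of 1.01, 1.10, 1.00 and 1.00 in O4+ arrays, against 0.641, 0.662, 1.02, 0.990 and 0.670 in A2B5+ arrays. A2B5+ replicates 1, 2 and 5 were low while replicates 3 and 4 were level with the O4+ arrays, and the difference of 0.40 ± 0.17 did not pass the test (limma adjusted p = 0.081).

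The paralogous coactivators Ep300 and Crebbp did not pass the test on type A. For Ep300 the ratios were 1.00, 0.307, 1.12 and 0.924 in O4+ arrays, against 0.966, 0.942, 1.22, 1.39 and 1.18 in A2B5+ arrays. O4+ replicate 2 was far below the other 3, and the difference of -0.59 ± 0.35 (limma adjusted p = 0.19) was -0.16 without it. For Crebbp they were 0.920, 0.980, 1.07 and 0.785 in O4+ arrays, against 1.00, 1.12, 1.12, 1.02 and 0.857 in A2B5+ arrays, with a difference of -0.12 ± 0.13 (limma adjusted p = 0.47). On type B the mean of 2 other Crebbp probe sets was 0.820, 0.852, 0.660 and 0.572 in O4+ arrays, against 1.70, 1.24, 1.34, 1.18 and 1.00 in A2B5+ arrays. There the groups did not overlap, and the difference was -0.83 ± 0.18 (limma adjusted p = 0.0055), so Crebbp was called lower on type B alone. Both differences were negative, and the gap between the types was not tested. The type A difference was -0.29 with arrays centred and -0.45 after the shift by low probe sets (limma adjusted p = 0.12 and 0.053). Kat6b and Kat7 did not pass the test (-1.06 ± 0.54 and 0.37 ± 0.24). Array weights gave calls for both, Kat6b lower (-1.12, limma adjusted p = 0.019) and Kat7 higher (0.63, 0.0025). Kat6b was also called lower with the replicate number as a block (-1.32, limma adjusted p = 0.003). Of its 2 probe sets, 1 was called lower alone (-1.24, limma adjusted p = 0.046).

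Among 12 tested genes for lysine methyltransferases and their core partners, 0 were higher by limma and 2 were lower (28.8% and 17.8% over all genes). The median was -0.24, with 0 higher and 2 lower at an unadjusted p under 0.05. The 2 were Eed and Suz12, non-catalytic core subunits of polycomb repressive complex 2. Eed, which binds the methyl mark that the complex makes, had ratios of 0.885, 0.882, 0.771 and 0.784 in O4+ arrays, against 1.00, 1.60, 1.52, 1.65 and 1.98 in A2B5+ arrays. The O4+ arrays were close together below the A2B5+ arrays, of which replicate 1 was the lowest, and the difference was -0.87 ± 0.18, 0.548-fold (limma adjusted p = 0.0042). Suz12, which the complex needs for its stability, had ratios of 0.914, 0.414, 0.725 and 0.996 in O4+ arrays, against 1.00, 1.26, 1.06, 1.05 and 1.42 in A2B5+ arrays. O4+ replicate 2 was lowest and O4+ replicate 4 reached almost to the A2B5+ range. The difference was -0.67 ± 0.25 (limma adjusted p = 0.047) and its call was lost in 7 of the 9 fits without a replicate. It was -0.40 without O4+ replicate 2 and -0.30 with array weights (limma adjusted p = 0.1 for the weighted fit).

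Ezh2, the main catalytic subunit of the same complex, had ratios of 1.36, 0.676, 1.08 and 1.00 in O4+ arrays, against 0.772, 0.902, 1.05, 1.28 and 0.612 in A2B5+ arrays. Its groups overlapped, and it did not pass the test on type A (0.16 ± 0.25, limma adjusted p = 0.62) or, as the mean of 2 probe sets, on type B (0.09 ± 0.12, 0.57). Ezh1, its alternative in cells that have left the cycle, also did not pass (0.03 ± 0.17). The fall of genes of dividing cells given above stands beside these values, and its part in the Eed and Suz12 differences was not tested.

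Kmt2a, a methyltransferase of active promoters also known as MLL1, had ratios of 1.00, 0.570, 1.56 and 0.843 in O4+ arrays, against 2.09, 0.848, 1.95, 1.63 and 0.630 in A2B5+ arrays on type A. Both groups spread widely and overlapped (-0.47 ± 0.41, limma adjusted p = 0.37). With the replicate number as a block, Kmt2a was called lower on type A (-0.73, limma adjusted p = 0.016). On type B the mean of 6 probe sets was 0.891, 0.822, 0.838 and 0.734 in O4+ arrays, against 1.33, 1.12, 1.48, 1.44 and 1.05 in A2B5+ arrays. Those groups did not overlap, and the difference was -0.63 ± 0.14 (limma adjusted p = 0.005). Over all 7 probe sets the differences ran between -1.49 and 0.21, so the result depends on which probe set is read. The other members of this role, Kmt2b, Kmt2c, Kmt2d, Kmt2e, Kmt5a, Kmt5b and Kmt5c, had differences between -0.67 and 0.43 and did not pass the test.

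**Figure D4:**
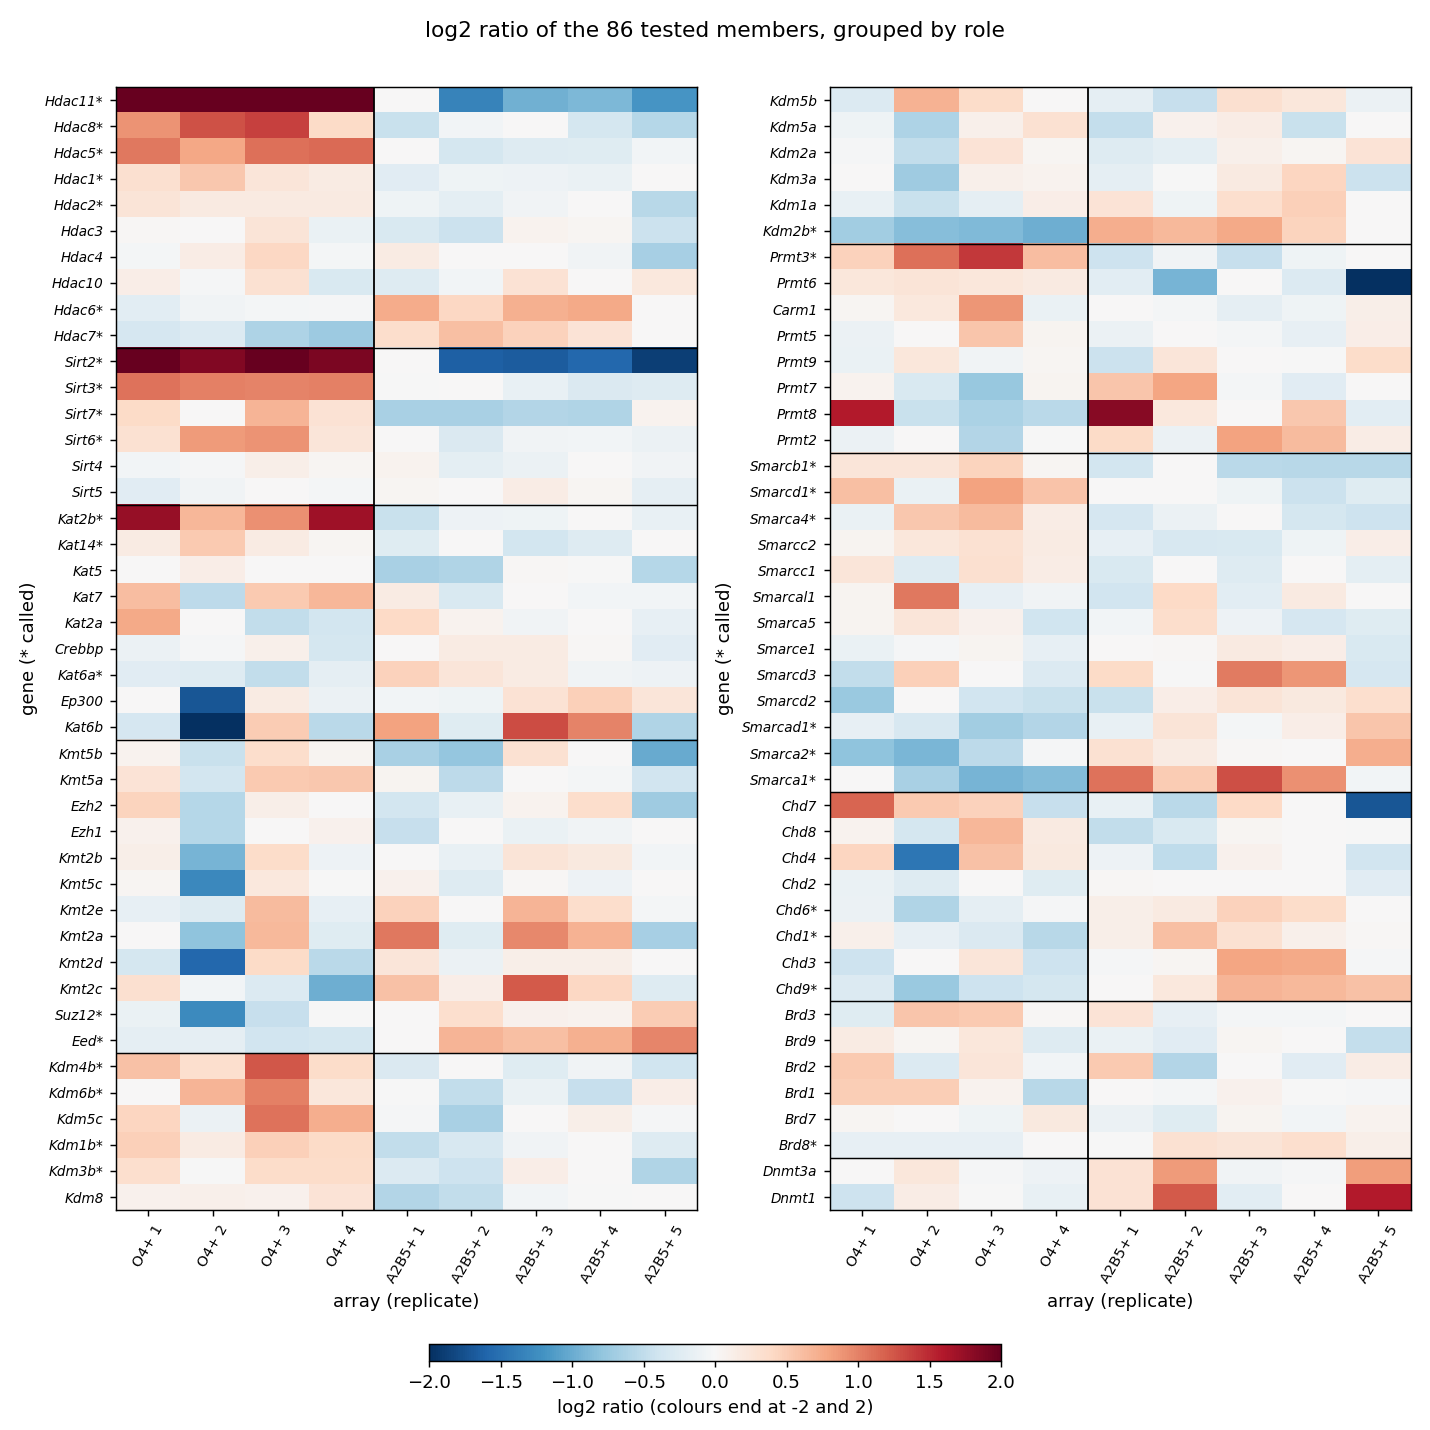
Log2 ratio (colour) of the 86 tested members (rows, grouped by role, * for a call) on each array (columns, 4 O4+ left of 5 A2B5+). Hdac11 and Sirt2 are the darkest rows in O4+ arrays, and O4+ replicate 2 is the lowest array for several methyltransferase and acetyltransferase genes.

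O4+ replicate 2 on type A stood apart for these genes. It was the lowest of 9 arrays for 19 of the 71 members read from type A (26.8%), against 12.4% of 9045 genes, although for 26.6% of all genes it was the highest. O4+ replicate 3 was the highest for 27 of the 71 (38.0%), against 16.6% of all genes. On type B, O4+ replicate 4 was the lowest for 6 of 15 (40.0%), against 20.4% of 2937 genes, and O4+ replicate 3 was the lowest for 5 of 15 (33.3%), against 8.96%. An array-quality weight from limma was lowest for O4+ replicate 2 on type A (0.218) and for O4+ replicate 4 on type B (0.311), whereas O4+ replicate 3 on type B had the highest weight of its type (2.49). Without O4+ replicate 2, 20 members were higher and 9 lower of 86, where 2992 and 2091 of all 11982 genes were.

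Of 12 lysine demethylases 4 were higher and 1 lower (28.8% and 17.8% over all genes), with a median of 0.30. The lower one, Kdm2b, recruits a variant polycomb complex to unmethylated CpG islands. Read from type B, its ratios were 0.618, 0.552, 0.544 and 0.510 in O4+ arrays, against 1.66, 1.56, 1.70, 1.36 and 1.00 in A2B5+ arrays. The O4+ arrays were within a narrow range and all below the A2B5+ arrays. The mean log2 ratio was -0.85 ± 0.12 in O4+ cells and 0.52 ± 0.31 in A2B5+ cells (SD, n = 4 and 5), a difference of -1.37 ± 0.17 or 0.388-fold (limma adjusted p = 1.7e-04).

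Kdm4b, Kdm6b, Kdm1b and Kdm3b were higher in O4+ cells. Kdm4b acts on a heterochromatin mark and was the only one of the 17 members measured on both array types that was called on both in the same direction, by 0.84 ± 0.19 on type A (limma adjusted p = 0.0068) and 0.89 ± 0.20 on type B (0.0061). Its type B ratios were 1.35, 1.67, 1.08 and 1.32 in O4+ arrays, against 0.619, 0.843, 1.00, 0.698 and 0.549 in A2B5+ arrays. Kdm6b, which removes the polycomb methyl mark, Kdm1b and Kdm3b had differences of 0.67 ± 0.22, 0.60 ± 0.14 and 0.49 ± 0.17 (limma adjusted p = 0.034, 0.0058 and 0.038). Centring ended the calls of Kdm6b and Kdm3b (limma adjusted p = 0.093 and 0.17), array weights also ended that of Kdm6b (0.44, 0.071), and the shift by low probe sets also ended those of Kdm4b and Kdm1b on type A (0.1 and 0.15).

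Kdm1a, also known as LSD1 and a partner of CoREST, had ratios of 0.906, 0.733, 0.882 and 1.09 in O4+ arrays, against 1.22, 0.944, 1.26, 1.39 and 1.00 in A2B5+ arrays. The groups overlapped, and the difference of -0.36 ± 0.16 did not pass the test (limma adjusted p = 0.09), although it did with arrays centred (-0.53, 0.028). Kdm1a was also called lower by limma with array weights (adjusted p = 0.037), a replicate block (0.036) and the shift by low probe sets (0.013). Kdm5c, an X-linked demethylase of an active mark, was 0.64 ± 0.24 on type A (limma adjusted p = 0.052) and -0.50 ± 0.15 on type B (0.023). The signs are opposite, and the type B value was called lower. Kdm2a, Kdm3a, Kdm5a, Kdm5b and Kdm8 had differences between -0.14 and 0.36 and did not pass.

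Of 8 arginine methyltransferases limma called 1 higher and 0 lower (28.8% and 17.8% over all genes). The median was 0.07, with 2 higher and 1 lower at an unadjusted p under 0.05. Prmt3, a cytosolic enzyme that methylates a ribosomal protein, had ratios of 1.38, 2.15, 2.67 and 1.54 in O4+ arrays, against 0.748, 0.953, 0.726, 0.947 and 1.00 in A2B5+ arrays. O4+ replicates 2 and 3 were the highest and no array of the groups overlapped. The mean log2 ratio was 0.90 ± 0.44 in O4+ cells and -0.21 ± 0.22 in A2B5+ cells (SD, n = 4 and 5), a difference of 1.11 ± 0.21 or 2.16-fold (limma adjusted p = 0.0021).

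Prmt5, the main enzyme of symmetric arginine dimethylation, had ratios of 0.923, 1.00, 1.47 and 1.04 in O4+ arrays, against 0.925, 1.00, 0.971, 0.897 and 1.10 in A2B5+ arrays. Carm1, also known as Prmt4 and a coactivator, had ratios of 1.03, 1.16, 1.84 and 0.916 in O4+ arrays, against 1.00, 0.978, 0.883, 0.939 and 1.09 in A2B5+ arrays. In both genes O4+ replicate 3 was the highest array and the groups overlapped, although O4+ replicate 2 was also above every A2B5+ array for Carm1. Neither passed the test (0.16 ± 0.15 and 0.29 ± 0.19, limma adjusted p = 0.41 and 0.24). Prmt1 shared its probe set with a second symbol and was not analysed. Prmt6 O4+ ratios (1.14 to 1.20) lay above all A2B5+ ratios (0.234 to 1.00), with A2B5+ replicate 5 far below the rest, and its difference of 0.92 ± 0.37 did not pass (limma adjusted p = 0.067). The other 4, Prmt2, Prmt7, Prmt8 and Prmt9, also did not pass.

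Of the 13 Smarc genes, most of them subunits of SWI/SNF-type remodelers, 3 were higher and 3 lower, where 28.8% and 17.8% of all genes were. The median was 0.07. All 3 higher calls were lost after the shift by low probe sets, which moves differences downward, and the 3 lower calls were kept. Among the ATPases, Smarca4 was called higher on the deposited scale, and Smarca2, Smarca1 and Smarcad1 were called lower. Smarca4, also known as BRG1, had ratios of 0.912, 1.45, 1.56 and 1.11 in O4+ arrays, against 0.795, 0.920, 1.00, 0.785 and 0.752 in A2B5+ arrays. O4+ replicate 1 lay among the A2B5+ arrays, and the difference was 0.54 ± 0.18 (limma adjusted p = 0.031). That call was lost in 5 of the 9 fits without a replicate and with arrays centred (0.12), and array weights gave 0.25 (0.19). Smarca2, also known as BRM and the alternative ATPase of the same complexes, had ratios of 0.573, 0.531, 0.693 and 0.986 in O4+ arrays, against 1.23, 1.12, 1.01, 1.00 and 1.65 in A2B5+ arrays. O4+ replicate 4 came closest to the A2B5+ arrays without overlapping, and the difference was -0.81 ± 0.21 (limma adjusted p = 0.012). On type B it was -0.61 ± 0.41 and did not pass. With no filter on probe sets the difference was -0.27 and the call was lost (limma adjusted p = 0.1).

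Smarca1, an ISWI-type ATPase also known as SNF2L, was read from type B and had ratios of 1.00, 0.641, 0.525 and 0.548 in O4+ arrays, against 2.11, 1.42, 2.43, 1.88 and 0.958 in A2B5+ arrays. O4+ replicate 1 overlapped with A2B5+ replicate 5, the lowest of its group. The mean log2 ratio was -0.61 ± 0.42 in O4+ cells and 0.74 ± 0.53 in A2B5+ cells (SD, n = 4 and 5), a difference of -1.35 ± 0.29 or 0.391-fold (limma adjusted p = 0.0044). Beside it, neuron genes moved both ways (4 higher and 8 lower of 14), and the part of neurons was not tested. Its paralog Smarca5, also known as SNF2H, did not pass (0.07 ± 0.18), with type B probe sets between -0.47 and 0.47.

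Smarcb1, a core subunit also known as SNF5, had ratios of 1.19, 1.19, 1.36 and 1.03 in O4+ arrays, against 0.775, 1.00, 0.691, 0.681 and 0.678 in A2B5+ arrays. The groups did not overlap, although A2B5+ replicate 2 came close to the O4+ arrays, and the difference was 0.65 ± 0.15 (limma adjusted p = 0.0067). This call was lost after the shift by low probe sets (0.21). Smarcd1 was higher by 0.61 ± 0.19 (limma adjusted p = 0.027, or 0.13 with arrays centred). Smarcad1, an ATPase of heterochromatin upkeep, was lower, with a difference of -0.59 ± 0.17 (limma adjusted p = 0.02), but its 2 probe sets gave -1.53 and 0.35, and with ratios raised to at least 0.5 the call was lost (-0.40, 0.053).

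Smarcc2, a scaffold subunit also known as BAF170, gave unlike results on the array types. On type A the mean of 2 probe sets differed by 0.34 ± 0.13 and did not pass (limma adjusted p = 0.052). On type B its probe set had ratios of 0.522, 0.465, 0.468 and 0.646 in O4+ arrays, against 1.64, 1.59, 1.04, 1.00 and 1.10 in A2B5+ arrays. There every O4+ array was below every A2B5+ array, with a difference of -1.26 ± 0.19 (limma adjusted p = 7.4e-04). The remaining Smarcc1, Smarcd2, Smarcd3, Smarce1 and Smarcal1 did not pass, with differences between -0.49 and 0.26.

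**Figure D5:**
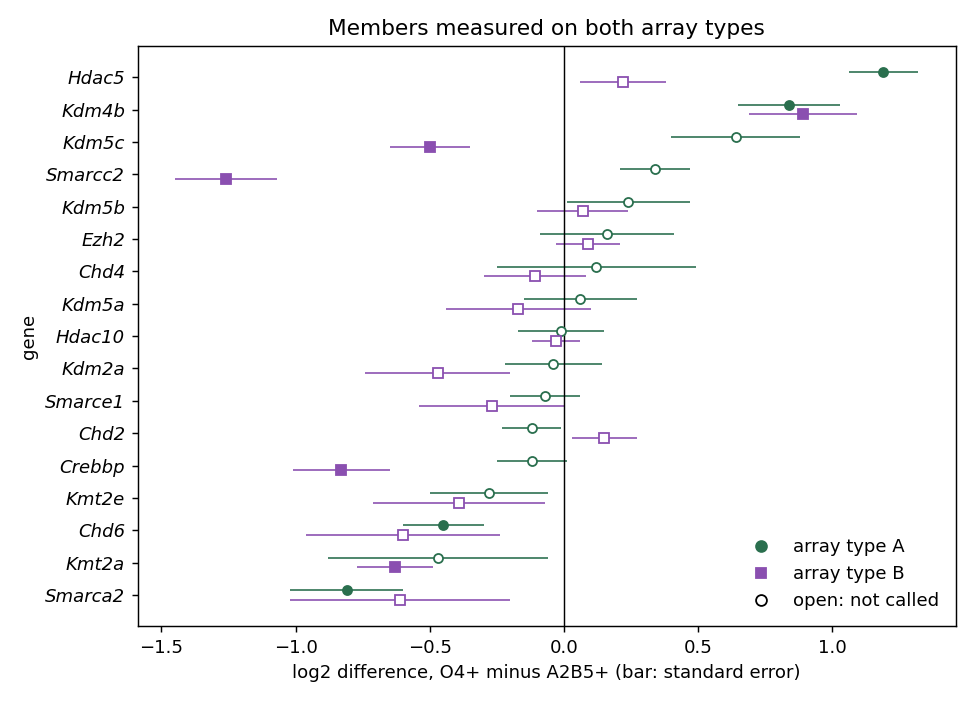
Log2 difference, O4+ minus A2B5+ (horizontal axis), with SE, of the 17 members (vertical axis) with kept probe sets on both array types; filled symbols are calls. Kdm4b is called higher on both, while Smarcc2, Crebbp, Kdm5c and Kmt2a are called lower on type B alone.

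Of 8 Chd remodelers 0 were higher by limma and 3 were lower (Chd9, Chd1, Chd6), where 28.8% and 17.8% of all genes were. The median was -0.29. At an unadjusted p under 0.05 the counts of Chd genes were the same, 0 and 3. Chd9 ratios spanned 0.595 to 0.824 in O4+ arrays and 1.00 to 1.61 in A2B5+ arrays, a difference of -0.88 ± 0.18 (limma adjusted p = 0.0031). Chd1, which binds a methyl mark of active promoters, and Chd6 differed by -0.46 ± 0.17 and -0.45 ± 0.15 (limma adjusted p = 0.047 and 0.036). Those calls were lost in 7 and 6 of the 9 fits without a replicate. The 3 Chd1 probe sets gave differences between -0.59 and -0.24, and 1 of them was called. On type B Chd6 differed by -0.60 ± 0.36 and did not pass (limma adjusted p = 0.21).

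The NuRD ATPases Chd3 and Chd4 did not pass the test. Chd3 had ratios of 0.747, 1.00, 1.18 and 0.749 in O4+ arrays, against 0.979, 1.03, 1.73, 1.69 and 0.986 in A2B5+ arrays, with A2B5+ replicates 3 and 4 well above the rest (-0.46 ± 0.24, limma adjusted p = 0.14). Chd3 was called lower with array weights (-0.83, limma adjusted p = 0.0053) and after the shift by low probe sets (-0.78, 0.023). Chd4 had ratios of 1.34, 0.369, 1.495 and 1.15 in O4+ arrays, against 0.933, 0.702, 1.06, 1.00 and 0.768 in A2B5+ arrays. O4+ replicate 2 was far below every other array, and leaving it out changed the difference of 0.12 ± 0.37 (limma adjusted p = 0.8) to 0.58 (0.023).

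Chd7, a remodeler of enhancers that is mutated in CHARGE syndrome, was read from 2 type B probe sets with mean ratios of 2.25, 1.44, 1.37 and 0.728 in O4+ arrays, against 0.907, 0.691, 1.31, 1.00 and 0.305 in A2B5+ arrays. O4+ replicate 1 was highest and A2B5+ replicate 5 lowest, the groups overlapped, and the difference of 0.82 ± 0.43 did not pass (limma adjusted p = 0.14). Chd8, a relative known in autism genetics, had ratios of 1.05, 0.786, 1.58 and 1.13 in O4+ arrays, against 0.713, 0.813, 1.03, 1.00 and 0.993 in A2B5+ arrays. It too overlapped and did not pass (0.29 ± 0.20, limma adjusted p = 0.26).

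Of 6 Brd genes, which encode bromodomain readers of acetylated lysine, 0 were higher by limma and 1 was lower (28.8% and 17.8% over all genes). The median was 0.13, with 0 higher and 1 lower at an unadjusted p under 0.05. The lower one was Brd8, a subunit of the NuA4-type complex (-0.33 ± 0.12, limma adjusted p = 0.04). Its call was lost in 6 of the 9 fits without a replicate. Brd2, a BET-family reader of acetylated histones, had ratios of 1.44, 0.828, 1.19 and 0.966 in O4+ arrays, against 1.44, 0.663, 1.00, 0.856 and 1.11 in A2B5+ arrays. Replicate 1 was highest in both groups, and the difference of 0.14 ± 0.24 did not pass (limma adjusted p = 0.65). Brd1, Brd3, Brd7 and Brd9 did not pass.

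Both tested DNA methyltransferases had negative differences, and limma called 0 of them, where it called 46.5% of all genes in either direction. At an unadjusted p under 0.05, 0 were higher and 0 lower. Dnmt1, which copies methylation at replication, had ratios of 0.747, 1.10, 0.996 and 0.898 in O4+ arrays, against 1.22, 2.34, 0.861, 1.00 and 3.00 in A2B5+ arrays. A2B5+ replicates 2 and 5 were the highest and A2B5+ replicates 3 and 4 were level with the O4+ arrays (-0.69 ± 0.36, limma adjusted p = 0.14). After the shift by low probe sets Dnmt1 was called lower (-1.01, limma adjusted p = 0.048). Dnmt3a, which lays down new methylation, was read from 2 type B probe sets with mean ratios of 1.00, 1.17, 0.984 and 0.929 in O4+ arrays, against 1.22, 1.80, 0.952, 0.986 and 1.79 in A2B5+ arrays. In that mean the A2B5+ arrays numbered 2 and 5 were highest too (-0.35 ± 0.22, limma adjusted p = 0.2). This came from 1 of the 2 probe sets, with ratios of 3.11 and 3.05 in those arrays. The other probe set read 1.04 and 1.05 there and was highest in A2B5+ replicate 1 (2.15). On type A, where Dnmt1 was read, the mean log2 ratio of 14 genes of dividing cells was 0.20, 0.54, 0.43, 0.24 and 0.61 in A2B5+ arrays, highest in replicates 5 and 2. On type B, where Dnmt3a was read, the mean of 6 such genes was 0.12, 0.73, 0.65, 0.24 and 0.18, highest in replicates 2 and 3 with replicate 5 near the lowest. The part of dividing cells in these values was not tested.

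Promoters are shown for members with wide differences, so that upstream sequences of genes that moved together can be compared. Of the 9 widest, 7 matched by symbol an entry of the RefSeq promoter table (build GRCr8, 250 bases before to 50 after the start), and Hdac11 and Prmt3 did not. Of these 7, the 2 higher members with the widest differences and both lower members are printed below, 5′ to 3′ on the gene's strand. Capitals mark CCAAT (37.5% of 33469 promoters hold it on either strand) and GGGCGG (33.1%), each shown as it or its reverse complement is written on this strand. The motifs do not overlap each other.
Sirt2, chr1:93181222-93181521, plus strand: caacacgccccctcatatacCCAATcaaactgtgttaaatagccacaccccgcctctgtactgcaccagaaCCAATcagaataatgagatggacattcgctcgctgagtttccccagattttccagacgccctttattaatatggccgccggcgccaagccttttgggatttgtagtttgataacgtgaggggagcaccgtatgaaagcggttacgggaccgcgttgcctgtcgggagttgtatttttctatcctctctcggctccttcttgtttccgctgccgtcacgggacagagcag
Kat2b, chr9:6798895-6799194, plus strand: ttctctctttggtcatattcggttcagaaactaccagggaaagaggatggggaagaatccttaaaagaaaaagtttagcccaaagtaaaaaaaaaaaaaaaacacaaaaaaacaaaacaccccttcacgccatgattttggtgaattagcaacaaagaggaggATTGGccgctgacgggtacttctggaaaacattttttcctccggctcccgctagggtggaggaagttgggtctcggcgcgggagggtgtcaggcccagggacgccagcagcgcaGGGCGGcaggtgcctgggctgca
Kdm2b, chr12:39235228-39235527, plus strand: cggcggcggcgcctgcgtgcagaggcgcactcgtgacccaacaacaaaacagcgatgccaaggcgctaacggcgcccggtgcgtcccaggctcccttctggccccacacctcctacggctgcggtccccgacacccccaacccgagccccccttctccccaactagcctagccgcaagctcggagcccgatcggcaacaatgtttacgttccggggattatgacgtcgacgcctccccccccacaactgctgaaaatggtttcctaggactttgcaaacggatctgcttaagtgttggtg
Smarca1, chrX:131944233-131944532, minus strand: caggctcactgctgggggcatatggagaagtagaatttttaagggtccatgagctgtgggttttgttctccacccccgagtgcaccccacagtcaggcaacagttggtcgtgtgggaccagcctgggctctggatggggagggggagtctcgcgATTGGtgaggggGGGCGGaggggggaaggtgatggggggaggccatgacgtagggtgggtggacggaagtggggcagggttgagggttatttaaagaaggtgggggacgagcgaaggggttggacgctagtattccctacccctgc
Sirt2 held 2 CCAAT matches and 0 GGGCGG matches, Kat2b and Smarca1 held 1 of each, and Kdm2b held 0 of either. CpG pairs numbered 19, 12, 27 and 10 in the order printed, against a median of 7 over all promoters in the table. Of the 3 not printed, Hdac8 held 0 of either motif and 4 CpG pairs, Hdac5 held 2 CCAAT and 1 GGGCGG matches and 22 CpG pairs, and Sirt3 held 2 and 3 matches and 20 CpG pairs. These are matches of letters in a window, and no binding or methylation was measured.

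Related chromatin genes outside the 88 were read from 12 lists, such as polycomb repressive complex 1, corepressor subunits and histone chaperones. Of 170 genes tested in them 35 were higher and 28 lower, with a median of 0.04, shares again not above those of all genes. Those called with a difference of at least 1.5 in size were 4 higher and 7 lower. The higher ones were Cdyl, a chromodomain corepressor (2.08 ± 0.20), the nucleosome assembly family member Nap1l5 (1.90 ± 0.31), the NuRD subunit Mta3 (1.64 ± 0.18) and the stress-response gene Gadd45a (1.5 ± 0.17). Cdyl ratios were 4.38, 2.58, 5.75 and 4.03 in O4+ arrays, against 1.00, 0.964, 0.944, 0.863 and 0.989 in A2B5+ arrays, so the O4+ arrays were all well above a tight A2B5+ group.

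The lower ones included Uhrf1, which brings Dnmt1 to newly replicated DNA (-2.33 ± 0.29), the remodeler Hells (-1.56 ± 0.24), the bromodomain ATPase Atad2 (-1.87 ± 0.19) and the replication-linked histone chaperone Asf1b (-1.75 ± 0.32). Uhrf1 ratios were 0.240, 0.281, 0.335 and 0.400 in O4+ arrays, against 1.77, 2.45, 1.04, 1.00 and 1.98 in A2B5+ arrays, with every O4+ array below every A2B5+ array. The other lower genes were the polycomb gene Pcgf5 (-1.60 ± 0.21) and Bcl11a and Bcl11b, zinc-finger factors of neurons and lymphocytes that join SWI/SNF complexes (-2.35 ± 0.50 and -3.40 ± 0.61). Bcl11b was read from type B, and its ratios were 0.335, 0.390, 0.174 and 0.270 in O4+ arrays, against 2.24, 1.77, 10.5, 5.34 and 1.00 in A2B5+ arrays, with no overlap and A2B5+ replicates 3 and 4 the highest. The 1 neuron gene read from type B moved the other way, with log2 ratios of 0.50 to 1.03 in O4+ arrays and -1.11 to -0.01 in A2B5+ arrays, while the mean of 13 neuron genes on type A was lower in O4+ arrays, as given above. The part of neurons and of dividing cells in these differences was not tested.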

How the data were processed

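Expression of O4+ and A2B5+ cells was read from 2 tables of ratios, 9 arrays each, with 0 value columns left unused. Linear ratios per probe set are what the authors deposited. The tool GCRMA, which corrects Affymetrix probes for background and summarises them, is named with no version per the submitters' processing notes. The sources used here do not give the step from its output to ratios. On type A 12995 of 15923 rows had a median ratio of exactly 1 over the 9 arrays, as did 11050 of 15333 on type B, and the median was below 1 elsewhere. Groups follow the antigen that each title names. For type B arrays the source label names whole brain rather than the sorted cells, and the title was followed.

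Gene symbols come from the platform annotation. On type A 12789 had 1 symbol, 312 several and 2822 none, and on type B 7570, 100 and 7663. The 57 control probe sets of each type and probe sets with several symbols were left out. The 88 genes have 161 probe sets, of which 138 passed the filter. A gene's value is the mean log2 ratio of its kept probe sets, type A before type B. For 58 members this was 1 probe set. No pseudocount was added. The groups were compared by limma 3.58.1 under R 4.3.3, with lmFit and eBayes in a two-sided test, fitted over all 11982 genes and again per array type over 13098 and 11136 probe sets, with Benjamini-Hochberg adjustment. The fit was tested on simulated data. Each replicate came from its own litter per the labels, and whether O4+ and A2B5+ replicates shared litters is not stated.

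Values per array are given for every member called with a difference of at least 1 in size and for a list of well-known members whatever their result, and other members by difference or range. Genes outside the members are named from related lists when called with a difference of at least 1.5, and from marker lists. The members, lists and this rule were chosen with earlier results of these data known. Alternatives changed the filter, the floor on ratios, the array scale, the rows per gene, array weights, robust eBayes, a replicate block and leaving out each replicate.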

Additional observations from a re-analysis of the deposited data

Results flagged for a closer look

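In 8 of the 98 groups of arrays checked over the named members, the lowest or highest array lay far from the rest of its group relative to the group's range. Chance flags about 1 in 20 groups, so a few such cases would be present without any cause. All 8 were on array type A. O4+ replicate 2 was the array that stood apart for 3 genes: Ep300, where it was low at 0.307, Kat5, where it was high at 1.10, and Kdm3b, where it was low at 0.994. O4+ replicate 1 stood high in its group for Hdac2 at 1.19 and for Sirt3 at 2.13. O4+ replicate 4 stood high for Brd8 at 1.00. A2B5+ replicate 1 stood high for Sirt2 at 1.00, and A2B5+ replicate 5 stood high for Sirt7 at 1.05.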

How the results depend on the processing

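Of the 32 called members, 12 kept their call in the direct comparison and in all 19 alternatives: Hdac11, Sirt2, Kat2b, Hdac8, Sirt3 and Prmt3 higher, and Kdm2b, Smarca1, Chd9, Eed, Hdac7 and Hdac6 lower. Each of these 12 had only 1 kept probe set. Alternatives that chose among kept probe sets or array types therefore left their values unchanged, whereas members with several kept probe sets could lose a call there. No named member reversed a called direction. Members called higher numbered 19, but 12 with arrays centred and 7 with the shift by low probe sets, and members called lower numbered 13, but 20 with that shift and 21 with array weights. All genes called higher numbered 3445, but 2241 with arrays centred and 1555 with the shift. All genes called lower numbered 2127, and 3039 with the shift and 2621 with array weights. Member probe sets called higher on type A numbered 18, but 11 with arrays centred and 6 with the shift, and those called lower 9, but 16 with the shift and 16 with array weights. On type B those called lower numbered 9, but 14 with array weights. Leaving out each replicate in turn gave 13 to 20 higher and 8 to 12 lower members, 2714 to 3622 higher and 1775 to 2091 lower genes, 13 to 21 higher and 6 to 10 lower probe sets on type A, and 2 to 3 higher and 6 to 14 lower on type B. The lower count was 8 without O4+ replicate 3 and 8 without A2B5+ replicate 3, and 14 probe sets were lower on type B without A2B5+ replicate 5. The cause of these shifts was not tested. With the replicate number as a block, 19 members were higher and 15 lower, where 3218 and 2185 of all 11982 genes were. In that fit 1 rather than 2 probe sets were higher on type B. Correlations of same-numbered deviations from the group means were 0.02, 0.31, 0.27 and 0.17 on type A and 0.24, -0.13, 0.07 and -0.20 on type B. With so few arrays these values cannot decide whether equal numbers pair the samples. Ratios carry no signal over background, so how near the background a member lay cannot be read from them.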
